A study of Mus musculus with 16 samples.

Results

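The genes described here encode nucleoporins, the proteins of the nuclear pore complex, and the soluble receptors that carry cargo through it. They were chosen by symbol: every row of the deposited expression table whose name starts with Nup, Kpna, Kpnb or Ipo and a number (or Nupl), together with exportins Xpo1 to Xpo7 other than Xpo5, was a member. The rule found 41 of the 25965 genes in the table, of which 23 were nucleoporins, 7 were karyopherins alpha or beta (Kpna, Kpnb), 7 were importins (Ipo) and 4 were exportins (Xpo). The rule uses names and no measured value, though it was written with earlier results of these data known.

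The study followed the growth of mouse oocytes. Wild-type oocytes of C57BL/6 mice (C57BL/6Babr in the study's methods) were picked by hand from pre-pubertal animals and pooled by diameter, so each library pools many oocytes. Strand-specific total RNA libraries were made in duplicate (A and B) for oocytes of 10–30 μm and for those of 40–45, 50–55 or 60–65 μm, and 1 column of values was given for germinal vesicle (GV) oocytes, the fully grown stage. DNA methylation was read by reduced representation bisulphite sequencing (RRBS, which samples CpG-rich DNA) in duplicate for every class but the smallest, and by post-bisulphite adaptor tagging (PBAT, which covers the whole genome) in 1 library of 60–65 μm oocytes. All groups shared the same genotype and strain. Age moved with size: the mice were 5 to 7 days old for 10–30 μm oocytes, 7 to 12 for 40–45, 9 to 14 for 50–55, up to 16 for 60–65 μm and 20 for GV, so size and age cannot be told apart. Nothing in the labels says that A and B came from separate animals, so the tests measure the spread between these libraries, which may be technical.

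The nuclear pore is built from stacked rings. A Y-shaped outer ring complex and an inner ring form the scaffold, phenylalanine-glycine repeat nucleoporins fill the central channel, and filaments on the cytoplasmic side and a basket on the nuclear side receive cargo and messenger RNA. Importin alpha binds a nuclear localisation signal and is carried by importin beta, other importins of the beta family bind cargo directly, and exportins carry cargo out together with Ran bound to GTP. A growing oocyte stays arrested in meiotic prophase with a single large nucleus, the germinal vesicle, and stores transcripts and proteins for the first divisions of the embryo.

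All 14 oocyte markers (among them Zp1 to Zp3, Gdf9 and Ddx4) were expressed, and their summed level lay between 3324 and 4411 RPKM (reads per kilobase of exon, corrected for library size) in the 8 libraries of growing oocytes. The 60–65 μm pair was the lowest, at 3324 and 3472 RPKM, and GV stood at 3079. The 12 granulosa cell markers summed to 2.17 and 2.57 RPKM in 10–30 μm and to 7.995 and 7.32 RPKM in 60–65 μm oocytes, with 9.75 in GV. The 3 of these 12 that reached 0.5 RPKM in at least 2 libraries (Nr5a2, Cyp19a1 and Inha) all rose from 10–30 to 60–65 μm, with a median log2 change of 1.60. Nr5a2 gave 4.81 and 4.60 RPKM of the sums at 60–65 μm, and Cyp19a1 went from 0.161 and 0.159 to 1.25 and 1.04 RPKM, with 2.53 in GV. Kitl and Fshr, under the limit, were also higher at 60–65 μm, whereas Foxl2 stayed at or below 0.0642 RPKM. The 7 blood and endothelial markers summed to 0.859 and 0.870 RPKM at 10–30 μm and to 5.14 and 4.77 at 60–65 μm, nearly all of it Pecam1 (4.70 and 4.19 RPKM). The sum of the 9 stroma and theca markers went the other way, from 4.02 and 2.87 RPKM at 10–30 μm to 1.16 and 1.10 at 60–65 μm. Of these, Col1a1, Col1a2 and Col3a1 were lower at 60–65 μm, whereas Star and Cyp17a1 were higher. These sums move with size, as do the members called below, and the part of the sums in the results was not tested.

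Nuclear transport genes were expressed at every stage. The median member had a mean level of 7.30 RPKM over the 8 libraries of growing oocytes, and 39 of the 41 passed the limit for testing (0.5 RPKM in at least 2 libraries). Kpna2 was the most abundant member at a mean of 114.5 RPKM, above 99.3% of the tested genes, followed by Kpna7 at 52.9 RPKM. Nup98 (22.8 RPKM), Nup107 (22.6), Nup37 (18.7) and Kpnb1 (18.5) came next. At the other end stood Nup210l, a paralogue of the pore membrane protein Nup210, at or below 0.00502 RPKM in every growing library. On a rough estimate from the size of 1 read in the table, this is between 0 and 4 reads in a library. Nup62cl, which resembles the C-terminal part of Nup62, was the other untested member. It was listed at 0.536 and 0.419 RPKM at 10–30 μm, and at 0.0940 and 0.0784 RPKM at 60–65 μm.

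Over the whole of growth, from 10–30 to 60–65 μm, 14 members rose and 13 fell, and 12 of the 39 tested were not called (limma on log2 of RPKM + 0.1, Benjamini-Hochberg adjusted p under 0.05 over 10518 genes). Of all tested genes, 31.7% rose and 31.6% fell in the same comparison, so the members' shares of 35.9% and 33.3% were near the background. Their median log2 change was -0.01, beside 0.00 for all tested genes. The plot of log2 change by role shows both directions in the outer ring, inner ring and central channel and in the importin families, whereas the cytoplasmic-side, basket and exportin members held no faller and the single membrane member tested fell. RPKM is a share of a library, so a fall in RPKM cannot be told apart from a gain of other transcripts, nor can fewer cells of a type be told apart from less RNA per cell.

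**Figure D1:**
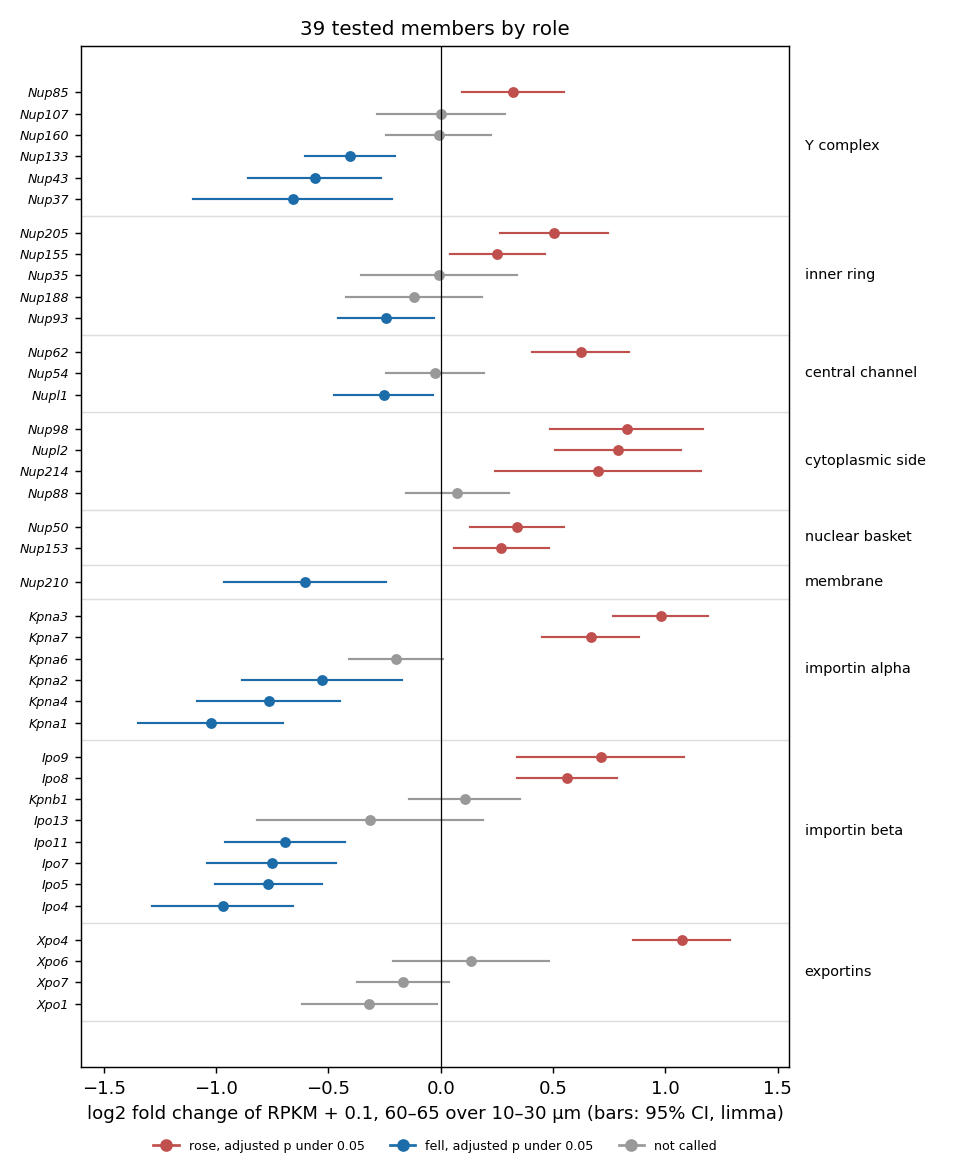
Log2 fold change from 10–30 to 60–65 μm (x axis, log2 of RPKM + 0.1) for the 39 tested members, grouped by role (y axis). Points are limma estimates from 2 libraries a class, bars are 95% confidence intervals, and colours give the 14 that rose, the 13 that fell and the 12 not called. Kpna1 was tested only through its 10–30 μm values. The estimates run from -1.02 for Kpna1 to 1.07 for Xpo4.

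Calls between neighbouring classes were most numerous in the first step. Between 10–30 and 40–45 μm, 5 members rose (background 13.0%) and 3 fell (background 10.1%). Without further scaling of the libraries 2 rose and 5 fell, with backgrounds of 10.3% and 14.5%, so the balance of that step depends on the scaling. From 40–45 to 50–55 μm, 2 rose (background 5.68%) and 0 fell (background 3.25%). From 50–55 to 60–65 μm, limma called 0 members and 0 of all 10518 genes, a background of 0%. In that last step 3 members and 1438 genes had an unadjusted p under 0.05, and no other tool was run. The early steps rested on few libraries. Without any single library other than 10–30 μm B, fewer members were called as risers from 10–30 to 40–45 μm. In each of these fits fewer of all genes were called too, in either direction, than with all 8 libraries. Without 10–30 μm B more of all genes were called. Fallers numbered 0 without 40–45 μm A, 2 without either 60–65 μm library, 3 without 10–30 μm B and 1 without any other library. Without 10–30 μm B, 1 of the 3 fallers and 4 of the 5 risers were among those called with all 8 libraries. The later calls did not all hold without either 40–45, either 50–55 or either 60–65 μm library, and in each of those fits fewer of all genes were called as well. The long comparison was firmer, and 9 of the 14 risers and 7 of the 13 fallers remained called whichever 1 of the 8 libraries was left out. Kpna1 also remained called in the 6 fits that could include it, but fell under the expression limit without either 10–30 μm library. It is the 1 member that reached the limit in a single size class, the class it fell from, so the limit favoured its call.

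The outer ring of the pore was split. Of the 6 measured Y complex members, Nup85 rose and Nup37, Nup43 and Nup133 fell, while Nup107 and Nup160 were not called. Among all tested genes 31.7% rose and 31.6% fell, which is the background for each role below as well. Nup37, a small beta-propeller protein of the complex (chr10:88146992-88178388), had 28.8 and 20.3 RPKM in the 10–30 μm libraries, 19.5 and 17.5 at 40–45 μm, 18.0 and 14.9 at 50–55 μm, 14.5 and 16.03 at 60–65 μm and 13.5 in GV. Both 10–30 μm libraries were above both 60–65 μm libraries, though 10–30 μm A stood well above B. The fall was 0.66 on the log2 scale (SE 0.19, adjusted p = 0.0168, limma), and the call was lost without 10–30 μm A or 60–65 μm A (largest adjusted p 0.106). Nup43 fell from 10.1 and 8.56 RPKM to 6.17 and 6.34, a log2 change of -0.56 (SE 0.13, adjusted p = 0.00515). It overlaps Pcmt1 on the other strand. Nup133 fell from 5.48 and 5.83 to 4.23 and 4.24 RPKM (log2 -0.40, SE 0.09, adjusted p = 0.00394), and a predicted gene on the other strand, Gm20388, covers its listed span. Nup85 rose from 10.6 and 10.5 to 13.7 and 12.7 RPKM (log2 0.32, SE 0.10, adjusted p = 0.0204), a call that was lost without 10–30 μm B or 60–65 μm A. Nup160 lay between 3.84 and 4.46 RPKM, and its log2 change was -0.01 (95% CI -0.24 to 0.22). Nup107 held between 20.7 and 24.1 RPKM in all 8 libraries, and its log2 change was 0.00 (95% CI -0.28 to 0.29).

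In the inner ring, Nup205 and Nup155 rose, Nup93 fell, and Nup35 and Nup188 were not called. Nup205, a large scaffold protein (chr6:35177430-35247590), was listed at 3.42 and 3.31 RPKM in 10–30 μm and at 4.79 and 4.82 RPKM in 60–65 μm oocytes, with no overlap between the classes. Its log2 rise was 0.51 (SE 0.11, adjusted p = 0.00321). The changes of Nup155 (log2 0.25) and Nup93 (-0.24) were small and were each lost in at least 6 of the 8 fits that left out 1 library. The intervals of the others were -0.35 to 0.34 for Nup35 and -0.42 to 0.19 for Nup188, on the log2 scale. Nup35 shares much of its listed span with Dusp19 on the same strand, and Nup188 with Phyhd1, so some reads could belong to either gene.

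Of the central channel nucleoporins, which form the permeability barrier, Nup62 rose, Nupl1 fell and Nup54 was not called. Nup62 (chr7:44816088-44830809) was at 10.4 and 11.4 RPKM at 10–30 μm, 10.5 and 12.02 at 40–45 μm, 13.6 and 13.96 at 50–55 μm, 17.5 and 16.1 at 60–65 μm and 18.3 in GV. The first 4 of these libraries overlapped each other, and the later classes lay above them. The log2 rise was 0.62 (SE 0.09, adjusted p = 5.76e-04). Of the proteins it assembles with, Nup54 stayed within 11.4 to 12.8 RPKM in all 8 libraries (log2 change -0.03, 95% CI -0.25 to 0.19), and Nupl1 changed by -0.25, a call that was lost in 7 of the 8 fits that left out 1 library. Whether Nup62 differed from either partner was not tested. Nup62 overlaps Il4i1 on the same strand, which was listed at a mean of 0.178 RPKM.

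As the roles were assigned here, with Nup98 counted on the cytoplasmic side only, that side carried the largest rises among nucleoporins. Of its 4 members 3 rose, 0 fell and Nup88 was not called, where 31.7% of all tested genes rose and 31.6% fell, and their median log2 change was 0.74 beside 0.00 for all tested genes. Nup98, a mobile repeat nucleoporin that occurs on both faces of the pore (chr7:102134204-102210120), had 13.3 and 18.3 RPKM at 10–30 μm, 19.3 and 23.1 at 40–45 μm, 23.8 and 29.2 at 50–55 μm, 27.1 and 28.4 at 60–65 μm and 32.3 in GV. Each class up to 50–55 μm lay above the one before it, and replicate B was the higher in every class. The rise from 10–30 to 60–65 μm was 1.78-fold (log2 0.83, SE 0.15, adjusted p = 0.00147), and it was already called at 40–45 μm (log2 0.49, SE 0.15, adjusted p = 0.0454). That early call was lost in 7 of the 8 fits that left out 1 library (largest adjusted p 0.215), without scaling of the libraries (adjusted p = 0.0997) and without a limit on low values (0.0811). Its start is shown because it had the largest rise among nucleoporins. Its CpGs, in capitals, number 31 in the window chr7:102210117-102210416 (minus strand, GRCm38.p6, RefSeq), which runs from 250 bases before to 50 after the start.
Nup98: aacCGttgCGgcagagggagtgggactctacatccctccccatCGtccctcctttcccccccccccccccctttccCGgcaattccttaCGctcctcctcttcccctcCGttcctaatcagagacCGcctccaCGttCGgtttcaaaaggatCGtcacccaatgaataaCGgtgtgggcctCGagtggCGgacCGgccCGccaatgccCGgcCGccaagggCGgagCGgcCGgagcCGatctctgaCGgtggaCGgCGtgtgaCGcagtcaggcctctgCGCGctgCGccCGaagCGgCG

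Nupl2, which docks the messenger RNA export factor Gle1, was listed at 0.548 and 0.726 RPKM at 10–30 μm, 0.790 and 0.783 at 40–45 μm, 0.975 and 1.06 at 50–55 μm, 1.15 and 1.17 at 60–65 μm and 1.13 in GV. The 10–30 and 60–65 μm libraries did not overlap, and the log2 rise was 0.79 (SE 0.12, adjusted p = 6.67e-04). Nup214, the anchor of the cytoplasmic filaments, changed by 0.70 on the log2 scale (SE 0.20, adjusted p = 0.0147), but its 60–65 μm libraries were 13.2 and 9.32 RPKM, the widest gap of any member in that class on the log2 scale, and the call was lost without 60–65 μm A or 10–30 μm A. Nup88, its partner, lay between 6.26 and 6.97 RPKM in all 8 growing libraries (log2 change 0.07, 95% CI -0.15 to 0.30) and at 7.44 in GV.

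Both basket members rose, where 31.7% of all tested genes rose, while the basket gene outside the symbol rule, Tpr, fell. Nup50, which helps to release importin alpha cargo, went from 7.71 and 8.89 to 10.9 and 10.1 RPKM (log2 0.34, SE 0.09, adjusted p = 0.0114), a call that was lost without 10–30 μm A or 60–65 μm A (largest adjusted p 0.0834). Nup153 went from a mean of 10.1 to 12.2 RPKM (log2 0.27, SE 0.09, adjusted p = 0.0312), and its call was lost in 5 of the 8 fits that left out 1 library and, at an adjusted p of 0.0500, without scaling. In the pore membrane, Nup210 fell from 1.26 and 1.73 to 0.933 and 0.934 RPKM (log2 -0.61, SE 0.16, adjusted p = 0.00946), a call that was lost without 60–65 μm A (adjusted p = 0.0535).

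Importin alpha genes changed in both directions. Of 6 measured, Kpna7 and Kpna3 rose, Kpna2, Kpna4 and Kpna1 fell, and Kpna6 was not called. Among all tested genes 31.7% rose and 31.6% fell. Kpna2 (chr11:106988629-106999541) had 157.3 and 122.9 RPKM at 10–30 μm, 118.7 and 113.3 at 40–45 μm, 113.3 and 98.7 at 50–55 μm, 94.0 and 98.0 at 60–65 μm and 95.2 in GV. Both smallest-oocyte libraries lay above all others, with A far above B. The fall was 1.44-fold (log2 -0.53, SE 0.16, adjusted p = 0.0165), and the call was lost without 10–30 μm A or without either 60–65 μm library (largest adjusted p 0.0963).

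Kpna7, the importin alpha known for its expression in oocytes and early embryos, had 38.99 and 38.98 RPKM at 10–30 μm, 51.1 and 52.0 at 40–45 μm, 61.7 and 57.3 at 50–55 μm, 62.1 and 61.5 at 60–65 μm and 63.3 in GV. Replicates were tight, the first 3 classes did not overlap, and the 50–55 and 60–65 μm libraries were close together. The rise over growth was 1.59-fold (log2 0.67, SE 0.09, adjusted p = 4.07e-04), of which 0.46 (SE 0.09, adjusted p = 0.0112) fell in the first step. That first step lost its call without 40–45 μm A (adjusted p = 0.0631).

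Kpna3 (chr14:61365186-61439947) was at 6.82 and 7.84 RPKM at 10–30 μm, 9.00 and 8.60 at 40–45 μm, 12.01 and 12.2 at 50–55 μm, 14.5 in both libraries at 60–65 μm and 18.9 in GV. No 2 classes overlapped. It rose 1.97-fold over growth (log2 0.98, SE 0.09, adjusted p = 4.76e-05), and it was called in the first step (log2 0.33, SE 0.09, adjusted p = 0.0373) and in the second (log2 0.43, SE 0.09, adjusted p = 0.0295). The first-step call was lost in 7 of the 8 fits that left out 1 library (largest adjusted p 0.181) and without scaling (0.0778), and the second-step call in 6 of the 8 (largest adjusted p 0.214).

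The remaining importin alpha genes were less abundant. Kpna6 stood at 5.60 and 6.31 RPKM, 4.48 and 5.05, 5.25 and 5.15, then 5.196 and 5.09 from the smallest class to the largest, and at 5.26 RPKM in GV. Its log2 change was -0.20 (SE 0.09, 95% CI -0.41 to 0.01, adjusted p = 0.0845). Kpna4 was at 1.06 and 1.48, 0.946 and 1.08, 0.818 and 0.926, then 0.692 and 0.694 RPKM, and at 0.519 in GV. All 60–65 μm and GV values of Kpna4 lay below all of the earlier ones, and it fell 1.70-fold (log2 -0.77, SE 0.14, adjusted p = 0.00155). Kpna1 was at 0.509 and 0.609, 0.348 and 0.324, 0.270 and 0.278, then 0.194 and 0.251 RPKM, with 0.201 in GV. Both 10–30 μm libraries lay above all others, and only these reached 0.5 RPKM, so it was tested through the class where it was high. With no limit on low values, in a fit of 20052 genes, the log2 change over growth was -1.025 (adjusted p = 0.00135) and that of the first step was -0.54 (adjusted p = 0.0526). Its mean level was above only 1.06% of tested genes.

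**Figure D2:**
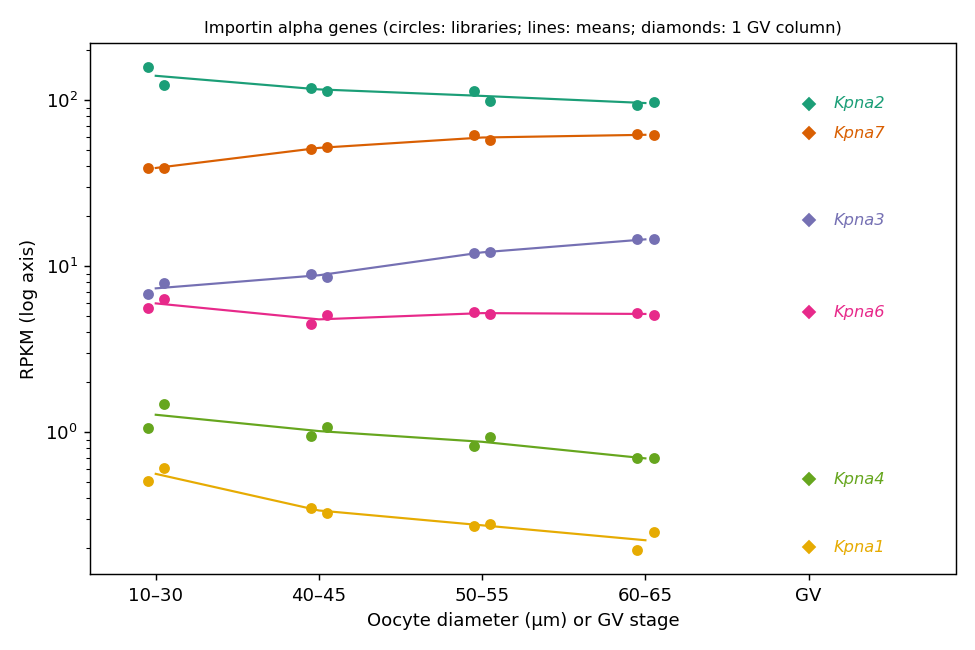
RPKM (y axis, log scale) of the 6 importin alpha genes by oocyte size class and in GV (x axis). Circles are the 2 libraries of a class, lines join class means and diamonds are the single GV column. Kpna2 lies above Kpna7 throughout, but by 4.03 and 3.15 times at 10–30 μm and 1.51 and 1.59 times at 60–65 μm.

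As a description of the family, Kpna2 gave 74.8% and 69.0% of the summed RPKM of the 6 genes in the 10–30 μm libraries and 53.2% and 54.4% in the 60–65 μm libraries. The sum itself was 210.3 and 178.1 RPKM in the smallest oocytes and 176.7 and 179.9 RPKM in the largest growing ones, so both 60–65 μm values lay within or just below the range of the 10–30 μm pair. The starts of both leading genes are shown because they differ in base composition. The Kpna2 window (chr11:106999476-106999775) held 24 CpGs and the RefSeq Kpna7 window (chr5:145009587-145009886) held 4. Both are on the minus strand of GRCm38.p6, from RefSeq, with CpGs in capitals.
Kpna2: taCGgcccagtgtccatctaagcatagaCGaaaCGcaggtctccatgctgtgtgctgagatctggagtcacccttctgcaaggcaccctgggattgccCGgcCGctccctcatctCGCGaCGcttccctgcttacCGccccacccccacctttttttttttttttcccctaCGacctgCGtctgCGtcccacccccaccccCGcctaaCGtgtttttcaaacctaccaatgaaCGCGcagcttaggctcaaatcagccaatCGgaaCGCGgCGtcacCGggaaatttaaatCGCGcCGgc
Kpna7: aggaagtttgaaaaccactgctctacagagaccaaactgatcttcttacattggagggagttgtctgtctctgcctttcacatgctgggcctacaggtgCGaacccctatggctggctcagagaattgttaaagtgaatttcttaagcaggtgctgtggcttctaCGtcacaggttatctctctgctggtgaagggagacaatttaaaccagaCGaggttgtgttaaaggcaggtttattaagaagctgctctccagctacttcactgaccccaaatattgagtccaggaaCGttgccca

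The table's Kpna7 span (chr5:144983519-145084030) starts 74394 bp before this RefSeq start, so the window shown is not the start that was used for the table.

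Importin beta members also went both ways. Kpnb1, the partner of importin alpha (chr11:97159714-97187881), had 15.8 and 19.7 RPKM at 10–30 μm, 16.5 and 19.2 at 40–45 μm, 19.2 and 19.3 at 50–55 μm, 18.9 and 19.1 at 60–65 μm and 19.7 in GV. The classes overlapped, and the log2 change over growth was 0.11 (SE 0.11, 95% CI -0.14 to 0.35, adjusted p = 0.409). Of the 8 members of the family, Ipo4, Ipo5, Ipo7 and Ipo11 fell, Ipo8 and Ipo9 rose, and Kpnb1 and Ipo13 (log2 -0.32, 95% CI -0.82 to 0.19) were not called. Of all tested genes 31.6% fell and 31.7% rose. The median log2 change of the 8 was -0.50 beside 0.00 for all tested genes. Listed with the family but outside the symbol rule were Tnpo1, Tnpo2, Tnpo3 and Snupn, an import adaptor that is not an importin beta. Those 4 had a median of 0.10, and the median over all 12 was -0.24.

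Ipo4, an importer of histones and ribosomal proteins (chr14:55625400-55637895), was at 3.39 and 4.02 RPKM at 10–30 μm, 2.07 and 2.71 at 40–45 μm, 1.81 and 2.17 at 50–55 μm, 1.79 and 1.87 at 60–65 μm and 1.40 in GV. Both 10–30 μm libraries were above all others. It fell 1.96-fold over growth (log2 -0.97, SE 0.14, adjusted p = 4.05e-04) and by 0.56 in the first step (SE 0.14, adjusted p = 0.0230). The first-step call was lost without 10–30 μm B or 40–45 μm A, and the listed span overlaps the end of Tm9sf1 on the same strand.

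Ipo5, which also imports histones and ribosomal proteins (chr14:120911194-120948042), was at 10.3 and 9.53 RPKM at 10–30 μm, 6.96 and 7.46 at 40–45 μm, 6.51 and 6.19 at 50–55 μm, 6.04 and 5.48 at 60–65 μm and 5.07 in GV. No 2 classes overlapped, and the largest step was the first (log2 -0.39, SE 0.10, adjusted p = 0.0306), a call that was lost in 7 of the 8 fits that left out 1 library (largest adjusted p 0.126). The whole fall was 1.70-fold (log2 -0.77, SE 0.10, adjusted p = 3.23e-04).

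Ipo7, an import receptor for ribosomal proteins and other basic cargo, was at 7.10 and 6.43 RPKM at 10–30 μm, 5.77 and 4.95 at 40–45 μm, 4.74 and 4.59 at 50–55 μm, 3.82 and 4.10 at 60–65 μm and 3.30 in GV. Each class lay below the one before it, and the fall was 1.69-fold (log2 -0.75, SE 0.13, adjusted p = 9.87e-04). Ipo11 fell from 2.57 and 2.61 to 1.42 and 1.71 RPKM (log2 -0.69, SE 0.12, adjusted p = 0.00106).

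Among the risers, Ipo8 (chr6:148770683-148831467), which is known to import Argonaute proteins and signal transducers of the Smad family, was at 11.6 and 14.1 RPKM at 10–30 μm, 15.7 in both libraries at 40–45 μm, 17.7 and 17.8 at 50–55 μm, 19.5 and 18.3 at 60–65 μm and 21.9 in GV. No 2 classes overlapped. It rose 1.48-fold (log2 0.56, SE 0.10, adjusted p = 0.00123), and the first step of 0.35 (SE 0.10, adjusted p = 0.0339) was lost in 7 of the 8 fits that left out 1 library (largest adjusted p 0.145) and without scaling (0.0820). Ipo9, an importer of core histones and actin, was at 1.52 and 2.13 RPKM at 10–30 μm, 1.77 and 2.32 at 40–45 μm, 2.39 and 2.74 at 50–55 μm, 3.23 and 2.78 at 60–65 μm and 3.67 in GV. The 2 smallest classes overlapped, and the rise over growth was 1.64-fold (log2 0.71, SE 0.16, adjusted p = 0.00494).

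The starts of a pair of fallers are shown because RefSeq's gene span and the table's begin at different places for both, which matters for the methylation values given further on. The Ipo5 window (chr14:120910944-120911243, plus strand) lies at the table's start, downstream of where RefSeq's span begins, and held 47 CpGs, the most of the 32 member windows found. The Ipo4 window (chr14:55635635-55635934, minus strand) lies 2211 bp inside the table's span and held 19. Both are from RefSeq on GRCm38.p6, with CpGs in capitals.
Ipo5: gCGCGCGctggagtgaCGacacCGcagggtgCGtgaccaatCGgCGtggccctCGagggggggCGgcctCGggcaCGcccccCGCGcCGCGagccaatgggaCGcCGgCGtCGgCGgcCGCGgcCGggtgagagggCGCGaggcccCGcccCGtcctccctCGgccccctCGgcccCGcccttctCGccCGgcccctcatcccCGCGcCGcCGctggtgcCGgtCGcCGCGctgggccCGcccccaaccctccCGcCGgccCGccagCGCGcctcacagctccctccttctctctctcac
Ipo4: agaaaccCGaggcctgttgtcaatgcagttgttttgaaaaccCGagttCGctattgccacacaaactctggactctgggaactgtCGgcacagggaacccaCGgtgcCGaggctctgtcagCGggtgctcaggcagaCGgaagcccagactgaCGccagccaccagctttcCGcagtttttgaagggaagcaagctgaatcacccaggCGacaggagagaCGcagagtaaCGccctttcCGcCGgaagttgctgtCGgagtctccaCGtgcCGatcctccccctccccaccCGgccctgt

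Of the 4 exportins, Xpo4 rose and Xpo1, Xpo6 and Xpo7 were not called. Xpo4, a receptor known to export the translation factor eIF5A and Smad proteins (chr14:57581002-57665430), was at 1.56 and 1.58 RPKM at 10–30 μm, 1.96 and 1.94 at 40–45 μm, 3.23 and 3.06 at 50–55 μm, 3.45 and 3.35 at 60–65 μm and 4.31 in GV. Replicates nearly coincided and no 2 classes overlapped. Its 2.103-fold rise was the largest of any tested member (log2 1.07, SE 0.09, adjusted p = 3.225e-05), with 0.36 (SE 0.09, adjusted p = 0.0282) in the first step and 0.64 (SE 0.09, adjusted p = 0.0151) in the second. The call for the first step was lost without any 1 of the 8 libraries, and that for the second without 40–45 μm B or 50–55 μm A. Its listed span overlaps Lats2 on the same strand (mean 0.764 RPKM).

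Xpo1, the main exporter of proteins with leucine-rich export signals (chr11:23256041-23298249), was at 14.5 and 14.8 RPKM at 10–30 μm, 15.6 and 12.3 at 40–45 μm, 13.5 and 12.7 at 50–55 μm, 11.7 in both libraries at 60–65 μm and 9.87 in GV. All earlier libraries lay above the 60–65 μm pair, but the log2 change of -0.32 (SE 0.13, 95% CI -0.62 to -0.02) did not pass the adjusted threshold (adjusted p = 0.0630). It did pass without scaling of the libraries (adjusted p = 0.0429) and with a block on the replicate letter (0.0311). Xpo6 and Xpo7 lay between 1.85 and 2.63 RPKM in all 8 libraries, with log2 changes of 0.13 (95% CI -0.21 to 0.48) and -0.17 (95% CI -0.37 to 0.03).

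**Figure D3:**
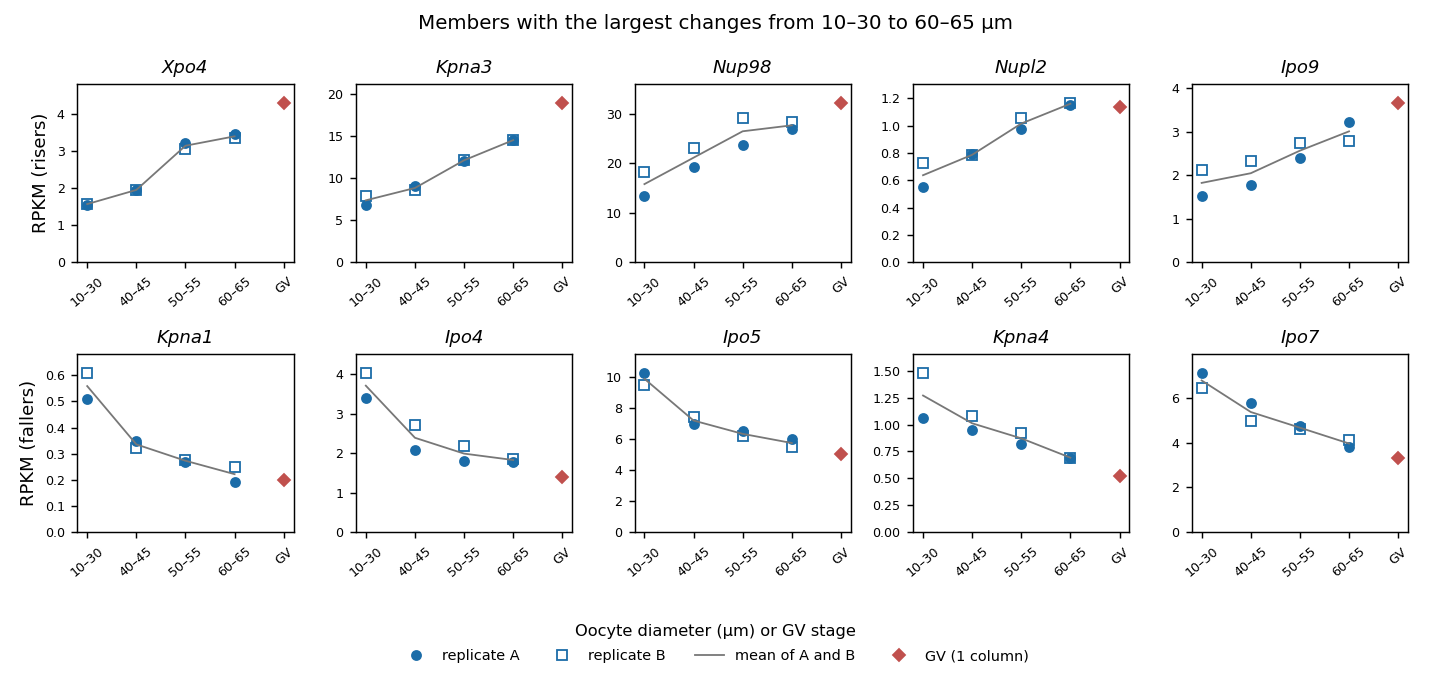
RPKM (y axes, from 0) of the 5 members with the largest rise (top row) and the 5 with the largest fall (bottom row) from 10–30 to 60–65 μm, by size class and in GV (x axes). Filled circles are replicate A, open squares replicate B, lines join class means and the diamond is the single GV column. Xpo4 reaches 3.45 and 3.35 RPKM at 60–65 μm and Ipo4 ends at 1.79 and 1.87.

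The GV column has no replicate and was not tested. Of the 39 tested members, 0 were at least 1.5-fold above and 0 at least 1.5-fold below the 60–65 μm mean, where 2.12% and 2.31% of all tested genes were. Kpna3 was farthest above (log2 0.43) and Ipo4 and Kpna4 were farthest below (both -0.32). Of the 14 members that had risen, GV lay above all 8 growing libraries for 11 and below all 8 for 0. Of the 13 that had fallen, it lay above all 8 for 0 and below all 8 for 9. Of the 12 not called, it lay above for 3 and below for 2. The call uses the 60–65 μm values and so bears on which side GV can lie: over all tested genes, GV lay above all 8 libraries for 57.5% of the 3335 that rose, and below all 8 for 67.7% of the 3328 that fell. Of the 3855 genes not called, it lay above for 19.1% and below for 22.3%.

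Genes of the transport pathway outside the symbol rule were counted in the same fit. Of 39 in the table, 37 were tested, and from 10–30 to 60–65 μm 9 rose and 15 fell, with a median log2 change of -0.18, where 31.7% of all tested genes rose and 31.6% fell. These lists were chosen with earlier results of these data known, and their counts are a description. The Ran cycle, which powers transport by switching Ran between GTP and GDP, had 5 fallers and 1 riser among 7 tested, beside the same background of 31.6% and 31.7%. The small GTPase Ran fell from a mean of 34.5 to 15.8 RPKM (log2 -1.12, SE 0.10, adjusted p = 4.21e-05), and its GTPase activator Rangap1 from 13.1 to 3.68 RPKM (log2 -1.81, SE 0.12, adjusted p = 1.11e-05). Rangrf, a Ran-binding factor, fell from 3.23 to 0.714 RPKM, and Ranbp1, a cofactor of the activator, from 8.45 to 4.73. Ranbp3, a cofactor of Xpo1, was the riser, at 17.7 and then 22.3 RPKM. Rcc1, the exchange factor that loads Ran with GTP, was not called (log2 -0.18, adjusted p = 0.112).

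Other carriers and pore proteins gave both directions. Cse1l, which returns importin alpha to the cytoplasm, fell from 6.55 to 3.76 RPKM, and Xpot, the exporter of transfer RNA, from 4.47 to 1.96. Tnpo1, a carrier of RNA-binding proteins, rose from 14.9 to 23.2 RPKM, and Tnpo3 fell from 1.44 to 1.13. On the cytoplasmic side the non-members Rae1 (7.59 to 11.2 RPKM) and Gle1 (11.3 to 14.9) rose, and Ranbp2 and Aaas were not called. Counted together with the members, this list had 5 risers and 0 fallers among 8, where 31.7% and 31.6% of all tested genes rose and fell. In the outer ring Ahctf1 rose (6.68 to 8.28 RPKM) and Seh1l fell (10.5 to 5.70 RPKM), in the basket Tpr fell (8.18 to 6.16 RPKM), and in the membrane Tmem33 fell (2.52 to 1.75 RPKM). Of 14 tested messenger RNA export genes, 4 rose and 4 fell, shares just under those of all tested genes. The risers were Mcm3ap (7.44 to 13.1 RPKM), Ddx19a (18.3 to 27.3), Nxt1 (8.83 to 13.1) and Pcid2 (4.77 to 6.69). The fallers were Alyref (9.57 to 4.61 RPKM), Eny2 (11.3 to 7.64), Thoc5 (4.802 to 3.595) and Ddx39b (7.25 to 5.46).

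At gene starts the members were almost free of methylation. Within 500 bp of the start listed in the table, 32 to 35 members had at least 5 CpG cytosines with 5 or more reads in an RRBS library. Their median was 0.393 to 0.636% methylated, beside 0.302 to 0.599% for all genes, and the highest value was 9.50% (Nup62cl in 50–55 μm B, 1031 calls). In PBAT of 60–65 μm oocytes 39 members were measured, with a median of 2.74% beside 3.46% for all genes and 3.20% for those tested for expression. A single member, Ipo4, exceeded 25% there, at 59.8% over 8 cytosines (46 of 68 calls methylated, 95% Wilson interval 55.8 to 77.6%, which covers counting error only). This is 2.56% of members, where 4.96% of all genes and 2.70% of the genes tested for expression exceeded it. Nup62 followed at 17.0%. The table's Ipo4 start lies within the listed span of Tm9sf1 on the same strand (1931 bp shared), so the Ipo4 window reaches into that gene. In RRBS the Ipo4 window held at most 4 covered cytosines, under the limit of 5, so it was left out of the counts above. Pooled over those cytosines, which share reads, 1.18% and 10.4% of calls were methylated in the 40–45 μm libraries (2 of 170 and 30 of 288). The share was 47.2% and 21.6% at 50–55 μm (60 of 127 and 11 of 51, the last over 3 cytosines) and 55.0% and 64.9% at 60–65 μm (33 of 60 and 111 of 171). Pooled, each later library lay above the 40–45 μm pair, but 9 of the 11 methylated calls in 50–55 μm B came from 1 cytosine. At the cytosines 36 and 54 bp before the start, that library had 1 of 17 calls methylated, where 40–45 μm B had 10 of 93. No test was run.

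The Ipo4 value depended on the start used. At the start that RefSeq gives, inside the table's span, the Ipo4 window was 8.27% methylated over 24 cytosines in PBAT, and 0 to 1.63% of the pooled RRBS calls there were methylated, over 13 to 18 cytosines. With RefSeq starts for all members, a choice made after the data were seen, 3 of the 37 windows measured (8.11%) exceeded 25%, as did 3.89% of all genes matched and measured at RefSeq starts and 2.16% of those tested for expression. The 3 members were Ipo5 at 84.8% (5 cytosines), Nup210l at 62.1% (14 cytosines) and Xpo7 at 44.3% (6 cytosines). At the table's starts the same genes were at 1.86%, 2.81% and 0.928%. All 4 genes, Ipo4 included, are among the 10 members whose starts differ by over 500 bp between the annotations.

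Most RefSeq windows of members were CpG-rich. A promoter of 300 bases was found for 32 of the 41 members, taking for each the one nearest to the table's start. Their median was 27.5 CpGs, beside 7 over 32851 promoters of the genome's genes, and 30 of the 32 (93.8%) held at least 10, as did 43.5% of all promoters. The exceptions were Nup160 with 6 and Kpna7 with 4. CCAAT, searched on both strands, occurred in 19 (59.4%, and 37.4% of all promoters). CANNTG, which reads alike on both strands, occurred in 11 (34.4%, and 72.3% of all). CCGGAAG occurred in 5 (15.6%, and 8.86% of all) and TATAAA in 2 (6.25%, and 13.6% of all). TAATTG, a sequence bound by homeodomain proteins, occurred in 0 of the 32 and in 2628 (8%) of all. The 32851 can hold several promoters of a gene and include those of genes too low to be tested, whereas each member gave a single window. No share was computed for the tested genes, so none of these differences can be called particular to the members. The motifs are letter matches, and no binding was measured.

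Over gene bodies (from 2 kb after the start to the end), all 41 members were measured by PBAT, and their median was 53.4% methylated. The median was 50.6% for all genes tested for expression and 29.7% for all genes in the table, and 25 members (61.0%) reached 50%, as did 51.3% of the tested genes. The highest were Nup43 at 76.2% (10 cytosines), Xpo1 at 74.9% (19) and Ipo7 at 71.4% (30). The lowest were Nup62cl at 6.26% (36 cytosines), Nup210l at 8.10% (229) and Kpna1 at 16.6% (164). The first 2 of these were the members too low to be tested for expression, and Kpna1 had the lowest expression of those tested. Among other members the levels differed from this: Kpna4 and Nup210, both under 1 RPKM at 60–65 μm, were at 58.8% and 57.0%, and Kpna2, the most abundant member, was at 35.6%.

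The Kpna7 body was 17.4% methylated over 348 cytosines, at percentile 8.20 of the tested genes, while its expression was 61.8 RPKM in the same size class. The value differed along the listed span: within the RefSeq gene the body was 28.1% methylated (135 cytosines), and the stretch before the RefSeq start was 9.88% (232 cytosines). The span mattered elsewhere as well. With RefSeq spans Kpna1 was at 46.7% and Nup35 at 65.1% (35.4% by the table), whereas Ipo5 was at 26.5% (56.8%) and Xpo4 at 30.9% (65.5%). The RefSeq body of either takes in the start listed in the table (1.86% and 1.56% methylated), and the part of this in the lower values was not tested. The median over members was 51.0% with RefSeq spans.

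**Figure D4:**
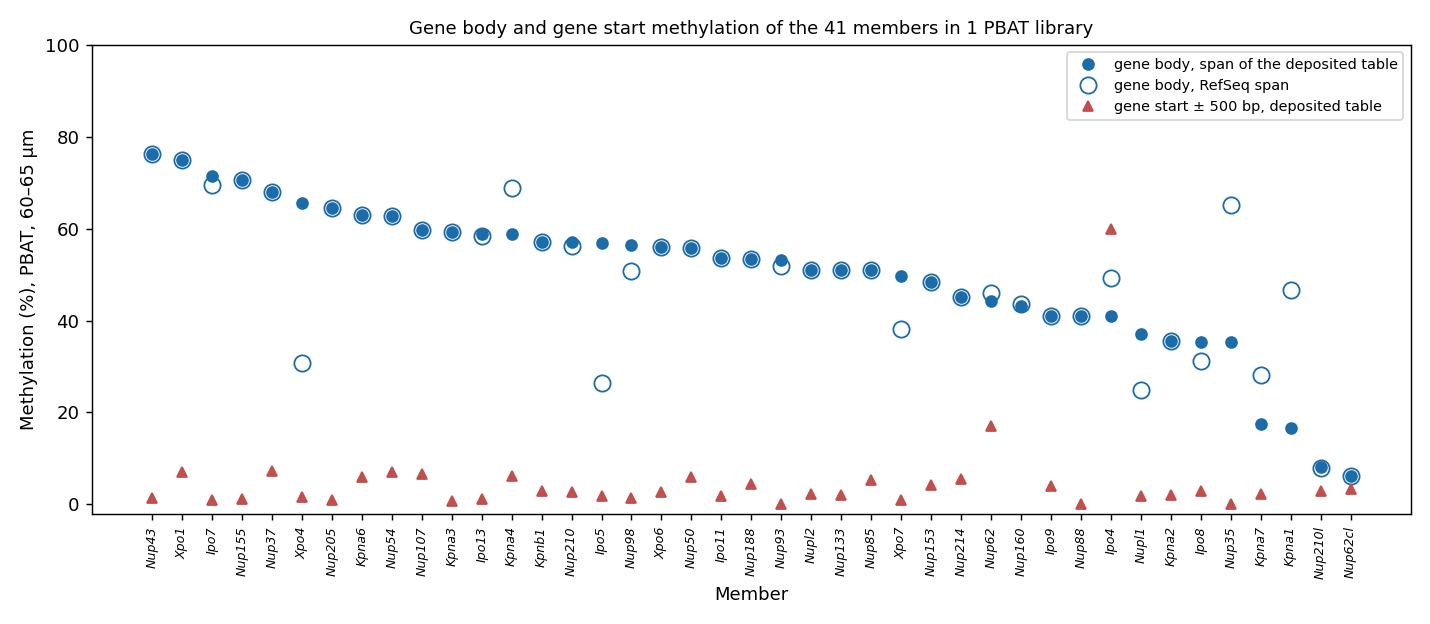
Percent methylated (y axis) in the PBAT library of 60–65 μm oocytes for the 41 members (x axis), ordered by gene body. Filled circles are gene bodies by the table's span, open circles by the RefSeq span, and triangles the 500 bp on each side of the table's start. Bodies run from 6.26 to 76.2%, and the only triangle above 25% is Ipo4 at 59.8%.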

How the data were processed

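RNA-seq of growing and GV oocytes and RRBS and PBAT of growing oocytes were used. For RNA, the authors trimmed reads with Trim Galore 0.2.8 and aligned them to GRCm38 with TopHat2 2.0.9, keeping 1 placement per read. They deposited RPKM, although the file is named for read counts. Whether Cufflinks or SeqMonk made the table, whether strand was used in counting, and how the single GV column was made are not given in the sources used here. For methylation, the authors used Trim Galore 0.3.5 and Bismark 0.14.0 (RRBS) or 0.10.0 (PBAT, duplicates removed), and deposited, per CpG cytosine, the percent methylated and the counts of methylated and unmethylated calls.

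From the RPKM, libraries were scaled by a trimmed mean (30% by ratio, 5% by level, scale factors 0.955 to 1.05), and log2 of RPKM + 0.1 was fitted with limma 3.58.1 in R 4.3.3, with a trend in the variance and a mean per size class over 8 libraries. Fold changes are on the log2(RPKM + 0.1) scale and understate those of low genes. Depth was read from the steps of the RPKM in single-exon genes: 1 read on 1 kb was worth 0.0101 RPKM in the shallowest library (10–30 μm A) and 0.00504 in the deepest (GV), with 66.1 to 73.8% of low values within 0.05 of a whole read. Reads with several placements keep 1 of them, so near-identical copies can share reads. Percent methylated was the mean over cytosines with at least 5 reads, with Wilson 95% intervals for pooled calls. Python 3.11.15, pandas and scipy were used, and scripts were tested on simulated data. With 2 libraries a class, methylation was not tested.

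Members and lists were chosen with earlier results of these data known. Values of each library were given for the 5 called members with the largest rise and the 5 with the largest fall in each comparison, importin alpha genes, Kpnb1, Xpo1 and the highest member, and a bound for the lowest. Called pathway genes (up to 4 per list and direction) were given by their class means. Methylation was given for starts over 25% methylated and the 3 highest and lowest gene bodies. Others were given by count or as examples chosen after their values were seen. Alternatives were other scalings, pseudocounts and limits, a replicate block, each library left out and, after the data were seen, RefSeq starts and spans.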

Additional observations from a re-analysis of the deposited data

How the results depend on the processing

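With RPKM used as deposited and no further scaling, 2 members rose and 5 fell from 10–30 to 40–45 μm, in place of 5 and 3, and both risers were among the 5. Leaving out 1 library at a time gave 0 to 5 risers and 0 to 3 fallers for that step, 0 to 2 risers from 40–45 to 50–55 μm, and 9 to 14 risers and 8 to 13 fallers from 10–30 to 60–65 μm. The shares of all tested genes that were called moved across the same fits in each of these comparisons. The member counts therefore cannot be read apart from that background. No left-out library gave a call in the last step, for a member or any other gene. No member changed direction past the threshold under any alternative that was run. Scaling by the median of log ratios and pseudocounts of 1 and 0.01 changed no call of a member, and testing without a limit on low values lost the first-step calls of Nup98 and Kpna1. The letters A and B were not taken to pair the libraries: A minus B correlated at 0.588 to 0.67 among the 3 smaller classes but at -0.227, -0.0256 and 0.113 between these and 60–65 μm. With a replicate block on the letter, the counts were 6 up and 4 down in the first step, 2 and 0 in the second, 0 and 0 in the third and 14 up and 14 down over growth, so none moved by over 1.5 times. The block added Nup205 and Ipo11 in the first step and Xpo1 over growth (adjusted p = 0.0387, 0.0470 and 0.0311). Over all genes the block raised the called shares from 13.0 and 10.1% to 17.4 and 14.4% in the first step, and from 31.7 and 31.6% to 34.6 and 34.7% over growth. In the second step they went from 5.68 and 3.25% to 10.1 and 7.70%. In the third they went from 0 to 1.57 and 0.761%, where a pseudocount of 1 gave 0.0761% up. For methylation, the number of members over 25% at the start in PBAT was 2 with at least 1 read per cytosine, 0 with at least 10 (25 members measured in place of 39, Ipo4 not among them) and 3 at RefSeq starts, in place of 1. With at least 10 reads 14 members reached 50% over the gene body, in place of 25, over 24 members measured in place of 41. A single GV column and 2 libraries a class limit every comparison, and the cause of the changes above was not tested.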
